A study of Homo sapiens with 6 samples.

Results

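ATF4 and 9 genes listed as its targets in the integrated stress response were followed by exonic read counts in nascent RNA libraries of A375 melanoma cells. The genes were taken by symbol: ATF4, DDIT3, ASNS, TRIB3, CHAC1, SESN2, PSAT1, PHGDH, DDIT4 and SLC7A11. All 10 were matched to an Ensembl identifier among the 58243 in the count tables, and all 10 were among the 23884 genes with enough reads to be tested. In PRL3-expressing cells ATF4, TRIB3, CHAC1, PSAT1, PHGDH and DDIT4 fell, ASNS rose, and DDIT3, SESN2 and SLC7A11 did not pass the test. These calls used TMM scaling of the library sizes, under which 31.6% of all protein-coding genes tested were lower. With library size alone only CHAC1 and PSAT1 were lower, and SESN2 was called higher along with ASNS. DDIT4 values overlapped between the groups. By annotation, most exonic sequence of the ASNS mRNA is shared with another gene, so whether its counts measure the spliced mRNA is open to doubt, as described with that gene.

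The integrated stress response is the shared route by which cells answer amino acid shortage, unfolded protein in the endoplasmic reticulum, heme shortage and double-stranded RNA. Stress-sensing kinases phosphorylate the α subunit of the translation initiation factor eIF2, which lowers protein synthesis in general and favors translation of the ATF4 mRNA. The ATF4 protein then pairs with C/EBP family factors and switches on genes for amino acid synthesis and uptake, transfer RNA charging, redox balance and, under lasting stress, cell death. Much of the control of ATF4 is on translation, so a count of its new RNA does not measure the protein.

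The study compared A375 cells, an established human melanoma line, after stable transfection with an empty vector (EV, replicates 1, 2 and 3) or a plasmid for human PRL3 (replicates 9, 10 and 11). PRL3 is the phosphatase encoded by PTP4A3, and the study's methods describe the expressed protein as carrying an HA tag. Both groups were kept in hygromycin B at 100 µg/ml and pulsed with 500 µM 4-thiouridine (4sU) for 20 min, after which labeled RNA was purified, depleted of ribosomal RNA and sequenced. Whether each line was 1 clone is not given in the sources used here, nor is it said that replicates were separate cultures, so p-values measure the spread between these libraries, which may be technical. In such bulk samples fewer cells of a kind and less RNA per cell cannot be told apart.

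The 6 libraries held 36532207 to 57952035 reads counted on genes. PTP4A3 was at 161 to 279 normalized counts in EV and 22065 to 28767 in PRL3 libraries, as labeled. Of 8 markers of the melanocyte lineage, SOX10, MITF, TFAP2A and S100B were read at 708 or more counts in every library, the pigment gene PMEL at 26 to 61, and the pigment genes MLANA, TYR and DCT at no more than 11. These markers moved with the groups: SOX10 (-0.85) and S100B (-1.38) were lower and TFAP2A (1.19) higher in PRL3 on the log2 scale, and the list summed to 24369 to 33629 normalized counts in EV and 15674 to 19006 in PRL3 libraries. MITF (0.36) was not called, though its PRL3 libraries were all above EV. Of 6 markers of other cell types, PTPRC, CD3E and PECAM1 had no more than 12 counts, EPCAM 2 to 21, COL1A1 29 to 80 and GFAP 8 to 113, and none was called. In normalized counts PRL3 libraries were all above EV for GFAP (log2 fold change 1.34) and all below EV for COL1A1 (-0.80). Those 6 summed to 81.6 to 152 normalized counts in EV and 121 to 161 in PRL3 libraries. The part of these markers in the results was not tested. Reads outside annotated exons of the expected strand were 28.7% to 41.1% of uniquely aligned reads in EV and 62.8% to 69.1% in PRL3 libraries. This share moved with the groups in every library, and its part in the results was not tested.

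Promoter sequence was examined because ATF4 pairs act at a known element. The C/EBP-ATF composite element was searched as TGATGNAA, on both strands, in the 250 bases before each RefSeq start (GRCh38.p14). The letters occurred in 3.14% of 35116 windows of that length. RefSeq windows were held for 9 of the 10 genes, 14 windows in all, with SLC7A11 not among them, and the letters were found in a window of ASNS and of CHAC1, which changed in opposite directions. The matches, in capitals and read 5′ to 3′ along each gene's strand, lay 68 bases before the ASNS start at chr7:97872458-97872487 (minus strand) and 209 bases before the CHAC1 start at chr15:40953251-40953280 (plus strand). Both matches lie within annotated exons of the same gene (GENCODE 44), upstream of these starts.
ASNS: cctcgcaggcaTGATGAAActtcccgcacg
CHAC1: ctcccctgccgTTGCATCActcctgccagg
A match is a description of the letters and not of a bound site, and the other ASNS window held none.

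The cAMP response element TGACGTCA was in 1.65% of all windows and in 0 of the 14. The CCAAT box, searched as CCAAT or ATTGG, was in 32.0% of all windows. It was found 3 times each in the windows of PSAT1 and CHAC1, 2 times each in those of SESN2, DDIT4 and DDIT3 and 1 time in that of PHGDH, and not in those of ATF4, ASNS or TRIB3. The windows of PSAT1 (chr9:78296875-78297124, plus strand) and SESN2 (chr1:28259268-28259517, plus strand) are shown with these boxes in capitals because they belong to the members with the largest fall and the smallest change. Neither window holds an annotated exon of its own gene, and exons of other genes were not searched for.
PSAT1: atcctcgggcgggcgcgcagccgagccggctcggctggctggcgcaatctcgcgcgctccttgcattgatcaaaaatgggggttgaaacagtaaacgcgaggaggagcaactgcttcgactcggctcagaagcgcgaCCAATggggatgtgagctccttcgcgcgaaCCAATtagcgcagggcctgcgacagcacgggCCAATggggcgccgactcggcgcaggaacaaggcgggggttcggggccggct
SESN2: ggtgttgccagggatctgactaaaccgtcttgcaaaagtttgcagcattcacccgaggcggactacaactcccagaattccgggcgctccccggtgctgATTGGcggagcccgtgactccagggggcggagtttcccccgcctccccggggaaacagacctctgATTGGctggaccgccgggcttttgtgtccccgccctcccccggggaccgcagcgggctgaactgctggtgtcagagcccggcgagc
The box was thus present in members that fell and in members that did not pass the test.

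Values below are normalized counts, that is reads on a gene's annotated exons divided by the library size after TMM scaling and brought to the mean size of the 6 libraries. For its elongation estimates the study used intronic reads, naming co-transcriptional splicing and low-level carry-over of mRNA as possible confounders. How far these exonic counts reflect new transcription was not tested. Tests are edgeR's quasi-likelihood test over all genes with Benjamini-Hochberg adjustment, called at an adjusted p under 0.05. Of the 10 genes, 6 were lower and 1 higher in PRL3, where 22.7% of all genes tested were lower and 20% higher. Among protein-coding genes, which all 10 are, 31.6% were lower and 15.2% higher. The median log2 fold change of the 10 was -0.60, against 0.11 over all genes tested and -0.15 over the 14443 protein-coding genes. With library size alone in place of TMM the count was 2 lower and 2 higher, and with all uniquely aligned reads as library size it was 9 lower and 1 higher, since the median of all genes itself moved to 0.60 and to -0.36.

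**Figure D1:**
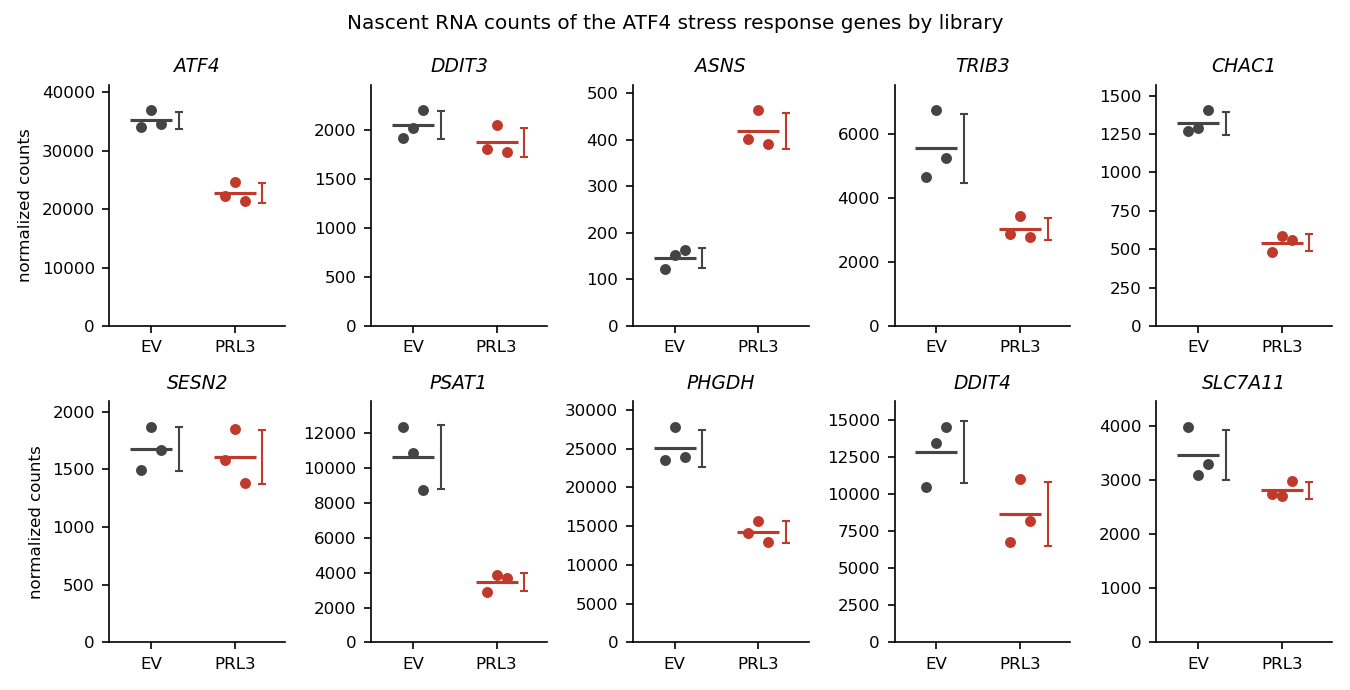
Normalized counts (y axis, linear from 0) of each gene in the 3 EV and 3 PRL3 libraries (x axis), with a horizontal bar at the group mean and an error bar of 1 SD beside it. The groups are apart for 7 of the 10 genes and overlap for DDIT3, SESN2 and DDIT4. Among all genes tested, PRL3 libraries were wholly below EV for 26.6% and wholly above for 29.7%.

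ATF4, the transcription factor at the center of the response (chr22:39519695-39522683, plus strand), gave 34160, 36937 and 34554 normalized counts in EV 1, 2 and 3, and 22212, 24704 and 21352 in PRL3 9, 10 and 11. Every PRL3 library was below every EV library. The means were 35217 ± 1502 and 22756 ± 1741 (SD, n = 3), a log2 fold change of -0.63 ± 0.15 (SE, edgeR's quasi-likelihood test, Benjamini-Hochberg adjusted p = 0.0035). Of protein-coding genes tested, 29.9% had a lower fold change. The fall was not called with library size alone, where the log2 fold change was -0.14. Of the pseudogenes named after ATF4, ATF4P3 (-1.46) and ATF4P4 (-1.66) were also called lower, but they share sequence with ATF4, so reads may be split among them.

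DDIT3 encodes CHOP, a C/EBP family factor tied to stress-induced cell death (chr12:57516588-57521737, minus strand). It was at 1925, 2026 and 2205 normalized counts in the EV libraries and at 1805, 2051 and 1781 in the PRL3 libraries. The groups overlapped, since PRL3 10 lay above EV 1 and EV 2. The log2 fold change was -0.13, with a 95% interval from -0.45 to 0.19 (adjusted p = 0.526 by edgeR's quasi-likelihood test), and its sign turned with library size alone (0.36) and with upper-quartile scaling (0.049). MARS1, a methionyl-tRNA synthetase gene that overlaps DDIT3 on the opposite strand, was lower by a log2 fold change of -1.32, and counting used strand. The microRNA gene MIR616 lies in a DDIT3 intron on the same strand, with 41, 48 and 119 reads in EV and 93, 180 and 203 in PRL3 libraries. Those groups overlapped, with a log2 fold change of 1.04 ± 0.41 (SE, adjusted p = 0.0565).

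TRIB3, a pseudokinase induced by ATF4 and CHOP that feeds back on both (chr20:362835-397559, plus strand), had 4656, 6750 and 5268 normalized counts in EV and 2869, 3429 and 2783 in PRL3. All PRL3 libraries were below the EV libraries, among which EV 2 was highest. The log2 fold change was -0.88 ± 0.17 (SE, adjusted p = 0.00112 by edgeR's quasi-likelihood test). With library size alone it was -0.39 and not called.

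CHAC1, a glutathione-degrading enzyme and a late target of ATF4 (chr15:40952962-40956512, plus strand), was read at 1268, 1286 and 1404 normalized counts in EV and at 479, 586 and 562 in PRL3. The highest PRL3 library was below the lowest EV library. The means were 1319 ± 73.9 and 542 ± 56.1 (SD, n = 3), a log2 fold change of -1.28 ± 0.17 (SE) with an adjusted p of 6.45e-05 by edgeR's quasi-likelihood test. The fall was called in all 16 alternatives tried.

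PSAT1 and PHGDH catalyze consecutive steps of serine synthesis from a glycolytic intermediate. PSAT1 (chr9:78297125-78330093, plus strand) was at 12365, 10882 and 8719 normalized counts in EV and 2894, 3864 and 3670 in PRL3, with no overlap. Its log2 fold change of -1.62 ± 0.18 (SE, adjusted p = 1.93e-05 by edgeR's quasi-likelihood test) was the lowest of the 10, and 5.52% of protein-coding genes tested lay below it. It was called in all 16 alternatives. The pseudogene PSAT1P3, which shares sequence with PSAT1, was also called lower, with 33, 78 and 24 reads in EV and 0, 9 and 3 in PRL3. PHGDH (chr1:119648411-119744218, plus strand) was at 23473, 27793 and 23892 normalized counts in EV and 14126, 15680 and 12918 in PRL3. These groups were apart too, at a log2 fold change of -0.81 ± 0.15 (SE, adjusted p = 0.000832 by edgeR's quasi-likelihood test), which was not called with library size alone (-0.32).

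ASNS makes asparagine from aspartate and glutamine and is among the best known ATF4 targets (chr7:97851677-97872542, minus strand). It gave 123, 152 and 163 normalized counts in EV and 402, 463 and 391 in PRL3, from 101 to 622 reads a library. All PRL3 libraries were above all EV libraries, at a log2 fold change of 1.52 ± 0.24 (SE, adjusted p = 0.000228 by edgeR's quasi-likelihood test), called in all 16 alternatives. These counts may leave out much of the spliced ASNS mRNA. In the GENCODE 44 annotation 2374 of the 2385 exonic bases of its representative transcript (99.5%) are also exon of ENSG00000284707, a long noncoding RNA gene on the same strand that is in the count tables with 10 to 30 reads. In the default mode of HTSeq a read on bases that belong to both genes is ambiguous and is counted for neither, and the mode used is not given in the sources used here. Ambiguous reads were 4.46% to 5.01% of uniquely aligned reads in EV and 1.67% to 2.53% in PRL3 libraries, and their part in the ASNS values was not tested. Of the 2481 ASNS exonic bases that are not shared, 99.6% lie outside the exons of the representative transcript, in longer or extra exons of other transcripts. Under that mode and these exon models few reads of the representative transcript could be counted for ASNS, but where its counted reads lie was not tested, and the exon models of Ensembl 91, used for counting, were not analysed here. The ASNS values are therefore given with this limit. No other of the 10 genes shares exonic bases on the same strand with a counted gene.

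**Figure D2:**
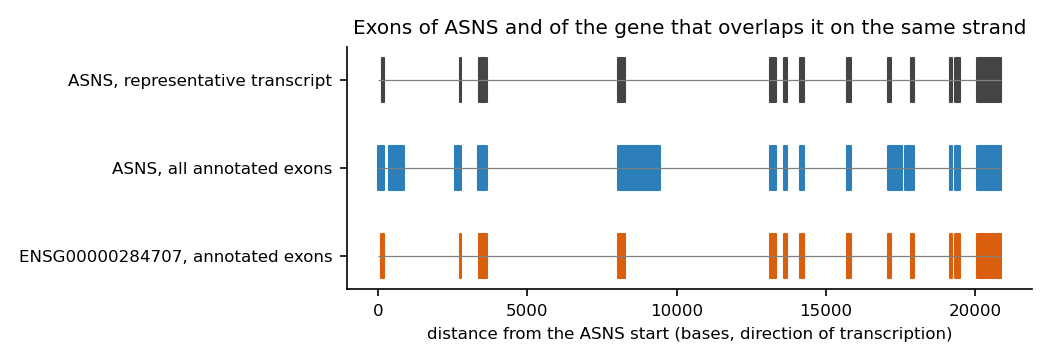
Exon maps, drawn to scale along the distance from the ASNS start in bases (x axis), of the representative ASNS transcript, of all annotated ASNS exons and of ENSG00000284707 on the same strand. Within ASNS the exons of the representative transcript nearly coincide with those of ENSG00000284707, and the longer ASNS exons extend past them. ENSG00000284707 also has exons upstream of the ASNS start, which are not drawn.

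SESN2 encodes a leucine-binding inhibitor of mTORC1 (chr1:28259518-28282491, plus strand). Its normalized counts were 1492, 1868 and 1665 in EV and 1582, 1849 and 1381 in PRL3. The groups overlapped throughout, and the log2 fold change was -0.062, with a 95% interval from -0.42 to 0.30 (adjusted p = 0.795 by edgeR's quasi-likelihood test). With library size alone SESN2 was called higher, at 0.43.

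DDIT4, also called REDD1, is another inhibitor of mTORC1 that responds to hypoxia and glucocorticoids as well as to ATF4 (chr10:72273919-72276036, plus strand). It was at 10501, 13464 and 14545 normalized counts in EV and at 6753, 11042 and 8189 in PRL3. PRL3 10 lay above EV 1, so the groups overlapped (two-sided exact permutation p = 0.2). The log2 fold change was -0.57 ± 0.19 (SE, adjusted p = 0.0304 by edgeR's quasi-likelihood test). This call held in 8 of 16 alternatives and was lost without EV 2, EV 3, PRL3 9 or PRL3 11, with adjusted p from 0.0698 to 0.154.

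SLC7A11 is the cystine importer that feeds glutathione synthesis (chr4:138164097-138242349, minus strand). It had 3990, 3103 and 3310 normalized counts in EV and 2747, 2707 and 2995 in PRL3. The groups did not overlap, and the log2 fold change was -0.30 with a 95% interval from -0.63 to 0.026, which did not pass the test (adjusted p = 0.128 by edgeR's quasi-likelihood test). Of all genes tested, 26.6% had PRL3 libraries wholly below and 29.7% wholly above the EV libraries. With 3 libraries a group the smallest two-sided exact permutation p is 0.1, which ATF4, ASNS, TRIB3, CHAC1, PSAT1, PHGDH and SLC7A11 reached.

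**Figure D3:**
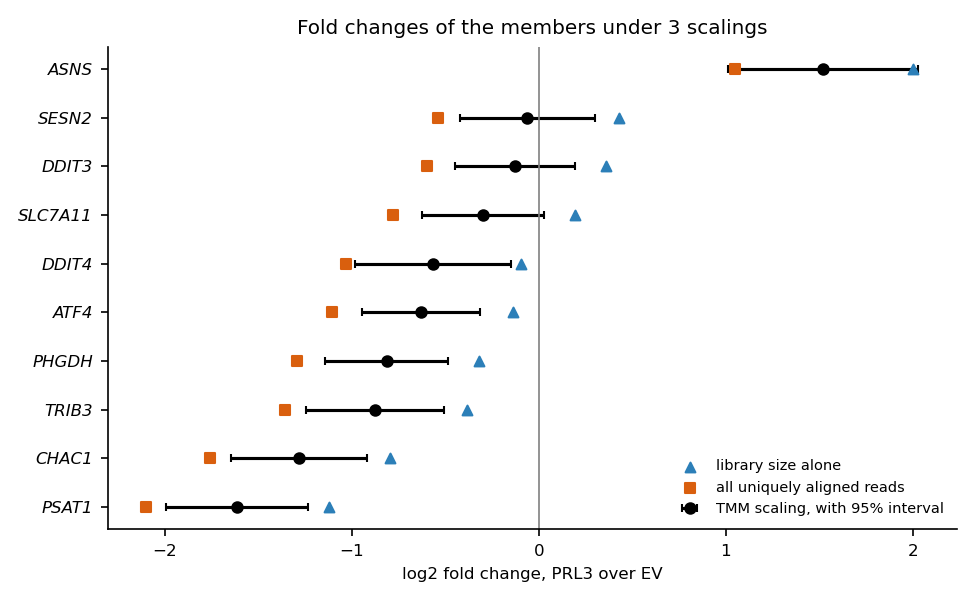
Log2 fold changes of the 10 genes, PRL3 over EV (x axis), with TMM scaling and its 95% interval (circles and bars), with library size alone (triangles) and with all uniquely aligned reads as library size (squares). The order of the genes is the same under the 3 scalings, which follows from each scaling shifting all genes nearly alike. ATF4, TRIB3, CHAC1, PSAT1, PHGDH and DDIT4 stay below 0 and ASNS above 0. Of those below 0, only CHAC1 and PSAT1 were called with library size alone. DDIT3, SESN2 and SLC7A11 change sign with library size alone.

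The scaling shifts all genes together, so counts were also set against ATF4 within each library, which needs no scaling. The log2 ratio of DDIT3 to ATF4 was -4.15, -4.19 and -3.97 in EV and -3.62, -3.59 and -3.58 in PRL3, a difference of means of 0.50 with no overlap. The difference was 0.57 for SESN2 and, with the limit on its counts given above, 2.16 for ASNS, again with no overlap. It was -0.66 for CHAC1, -0.98 for PSAT1 and -0.18 for PHGDH, also with the groups apart. Each of these 6 ratios had a two-sided exact permutation p of 0.1, the smallest possible, and 0.15 after Benjamini-Hochberg adjustment over the 9 ratios. Of the other genes tested, 54.1% had ratios to ATF4 wholly higher in PRL3 and 12.9% wholly lower, or 49.4% and 16.8% of protein-coding genes. The median difference was 0.72 over the genes with reads in every library and 0.49 over the coding ones, so those of DDIT3 and SESN2 were near the median of coding genes. Ratios of TRIB3 (-0.23), SLC7A11 (0.34) and DDIT4 (0.048) overlapped between the groups. The sign of the difference relative to ATF4 was thus not the same for all members, at p-values that the exact test cannot bring under 0.05 with these group sizes.

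**Figure D4:**
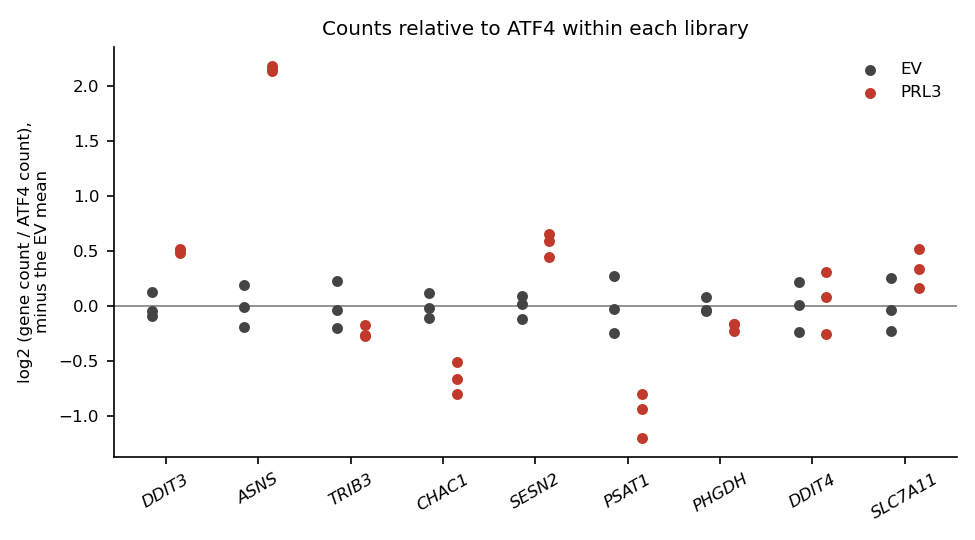
Log2 ratio of each gene's count to the ATF4 count in the same library, minus the EV mean of that ratio (y axis), for 9 genes (x axis) in 3 EV and 3 PRL3 libraries (points). PRL3 libraries lie above EV for DDIT3, ASNS and SESN2 and below for CHAC1, PSAT1 and PHGDH.

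Levels of different genes were compared only per length, as TMM-scaled RPKM, that is CPM divided by the kb of annotated exon. ATF4 was the most abundant of the 10 in both groups, at a mean of 286 in EV and 185 in PRL3. In EV it was followed by DDIT4 (129), PSAT1 (103), PHGDH (57.9), TRIB3 (35.9), DDIT3 (33.3), CHAC1 (13.7), SESN2 (10.3), SLC7A11 (7.63) and ASNS (0.632, for the reads that could be counted). The ranges over libraries overlapped between DDIT4 and PSAT1 and between TRIB3 and DDIT3, so those neighbors did not differ beyond their spread. In PRL3 the order was DDIT4 (86.8), PSAT1 (33.5), PHGDH (32.9), DDIT3 (30.5), TRIB3 (19.5), SESN2 (9.84), SLC7A11 (6.20), CHAC1 (5.61) and ASNS (1.82). There PSAT1, PHGDH and DDIT3 overlapped in turn, as did SLC7A11 and CHAC1. CHAC1 was above SESN2 in EV and below it in PRL3, with no overlap in either group. Per length of the longest transcript PHGDH came directly after ATF4 in both groups, though in each its range overlapped that of DDIT4, the next gene.

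Between their outermost annotated ends the members span from 2118 bases (DDIT4) to 95808 bases (PHGDH) of the genome. Fold changes of all coding genes moved with span measured in this way. Coding genes under 5 kb had a median of -0.71 on the log2 scale and 49.1% were lower, and for those over 100 kb the median was 0.14 and 12.8% were lower. ATF4, CHAC1 and DDIT4, all under 5 kb, were each lower. From 5 to 25 kb between these ends, where 43.1% of coding genes were lower, none of DDIT3, ASNS and SESN2 was lower. From 25 to 100 kb, where 28.4% were lower, PSAT1, TRIB3 and PHGDH were lower and SLC7A11 was not called. The classes of TRIB3 and DDIT3 depend on the start used. The RefSeq windows of TRIB3 end at chr20:381294 or later, inside the annotated span from 362835 to 397559. From such a start TRIB3, which was lower, would fall in the 5 to 25 kb class. Those of DDIT3, on the minus strand, are chr12:57520515-57520764 and chr12:57520518-57520767, inside its annotated span from 57516588 to 57521737. From either start DDIT3, which was not called, would fall in the class under 5 kb. The PHGDH window, ending at chr1:119711933, also lies inside the annotated span, and PHGDH would be shorter but keep its class. The part of gene span in the members' changes was not tested.

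Other genes of the response were taken from lists of 94 genes, 92 of which were tested. Of these 57 were lower, 6 higher and 29 not called, beside the 31.6% of protein-coding genes lower and 15.2% higher, and their median log2 fold change was -0.75. With library size alone 41 were lower and 21 higher, and with all uniquely aligned reads as library size 70 were lower and 1, ATF3, was higher. Of the genes called, CARS1, NFE2L1 and DNAJB11 turned positive with library size alone, and HERPUD1 turned negative with all uniquely aligned reads. All values in the next paragraphs are log2 fold changes, PRL3 over EV, from the same fit, and "lower" and "higher" mean called at an adjusted p under 0.05 by edgeR's quasi-likelihood test.

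Upstream of ATF4, the kinases and phosphatase subunits that set eIF2α phosphorylation depended on the scaling. Of 10 such genes and their activators 2 were lower and 1 higher with TMM, with a median of 0.15. The count was 1 lower and 6 higher with library size alone (median 0.65), with upper-quartile scaling 2 and 4 (median 0.33), and with all uniquely aligned reads 4 and 0 (median -0.34). The heme-sensing kinase gene EIF2AK1 was lower (-0.97), at 4619 ± 510 normalized counts in EV and 2363 ± 5.59 in PRL3 (SD, n = 3), as was GCN1 (-0.57), whose product activates the amino acid-sensing kinase. That kinase's gene, EIF2AK4 (0.34, adjusted p = 0.0786), the RNA-sensing EIF2AK2 (-0.060) and the endoplasmic reticulum kinase EIF2AK3 (0.11) were not called. Of the phosphatase subunits that reverse the mark, the constitutive PPP1R15B was higher (0.87) and the stress-induced PPP1R15A was not called (0.35, adjusted p = 0.0716). All 8 subunits of eIF2 and of its exchange factor eIF2B were lower, with a median of -0.91, led by EIF2B3 (-1.14), EIF2S2 (-1.11) and EIF2B1 (-1.07). The count was 4 of 8 with library size alone (median -0.41) and 6 with upper-quartile scaling, and all 8 values stayed below 0.

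Among 8 partner and related transcription factors 4 were lower and 1 higher, with a median of -0.25, which turned to 2 lower and 3 higher with a median of 0.24 under library size alone. CEBPB, a dimer partner of ATF4, was lower (-1.44), and CEBPG, another partner, was not called (0.23). ATF3, a target that restrains stress transcription, was the one factor called higher (1.06), with 995 ± 167 normalized counts in EV and 2071 ± 116 in PRL3 (SD, n = 3). ATF5 (-0.72) and NUPR1 (-2.02), both stress-induced, were lower, though NUPR1 was read at only 33 to 291 counts.

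Of 13 synthetases known to respond to ATF4, 11 were lower and none higher, with a median of -1.15, led by NARS1 (-1.53), VARS1 (-1.48) and WARS1 (-1.45), while LARS1 (-0.16) and TARS1 (-0.29) were not called and turned positive with library size alone. All 7 other cytosolic synthetases were lower as well, with a median of -0.97, led by FARSA (-1.57), QARS1 (-1.56) and RARS1 (-1.35). With library size alone 9 of the 13 (median -0.65) and 5 of the 7 (median -0.47) were lower, and none was higher. With all uniquely aligned reads as library size all 13 and all 7 were lower. Both synthetase lists thus moved the same way, and whether they differed was not tested.

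Of 7 amino acid transporters 5 were lower and 1 higher, or 2 and 2 with library size alone. SLC6A9 (-1.04), SLC1A5 (-0.99) and SLC7A5 (-0.85), carriers of glycine, glutamine and large neutral amino acids, fell, whereas SLC38A2, the carrier induced by amino acid shortage, rose (0.92). Its normalized counts were 21038, 12029 and 18630 in EV and 25420, 32039 and 40174 in PRL3. Of 10 enzymes of serine, folate, proline and cysteine metabolism 7 were lower and none higher, with a median of -0.92. With library size alone 6 of the 10 were lower and none higher, with a median of -0.43. PYCR1, the last step of proline synthesis, fell the most (-2.71), with 4569, 6718 and 3873 normalized counts in EV and 585, 999 and 730.0 in PRL3. Mitochondrial SHMT2 (-1.52) and CBS (-1.42), for which GRCh38 holds a near-identical copy that can take its reads, were also lower. PSPH, which completes serine synthesis after PHGDH and PSAT1, was not called (-0.37, adjusted p = 0.0764 by edgeR's quasi-likelihood test).

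Of 7 secreted or feedback targets 6 were tested. The translation repressor gene EIF4EBP1 (-1.62) and the stress hormone gene GDF15 (-1.20) were lower, and the angiogenic factor gene VEGFA was higher (0.67), while with library size alone 3 of the list were higher and with all uniquely aligned reads none was. FGF21 had at most 2 reads in a library. Among 6 relatives of the members, 5 of them tested, TRIB1 was higher (0.79) where its relative TRIB3 was lower, and none was lower, though with all uniquely aligned reads 2 were lower and none higher. DDIT4L had 0 reads in every library, which allows up to 3 reads per library. For comparison, 11 of 18 genes of the ATF6 and XBP1 branches, the arms of the unfolded protein response that do not pass through ATF4, were lower and 1 was higher, with a median of -0.96. SDF2L1 (-1.61), PDIA6 (-1.59) and CRELD2 (-1.56), chaperones and folding helpers of the endoplasmic reticulum, fell, and HERPUD1, a degradation factor that also responds to ATF4, rose (0.43). Of these 18, 10 were lower and 5 higher with library size alone.

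**Figure D5:**
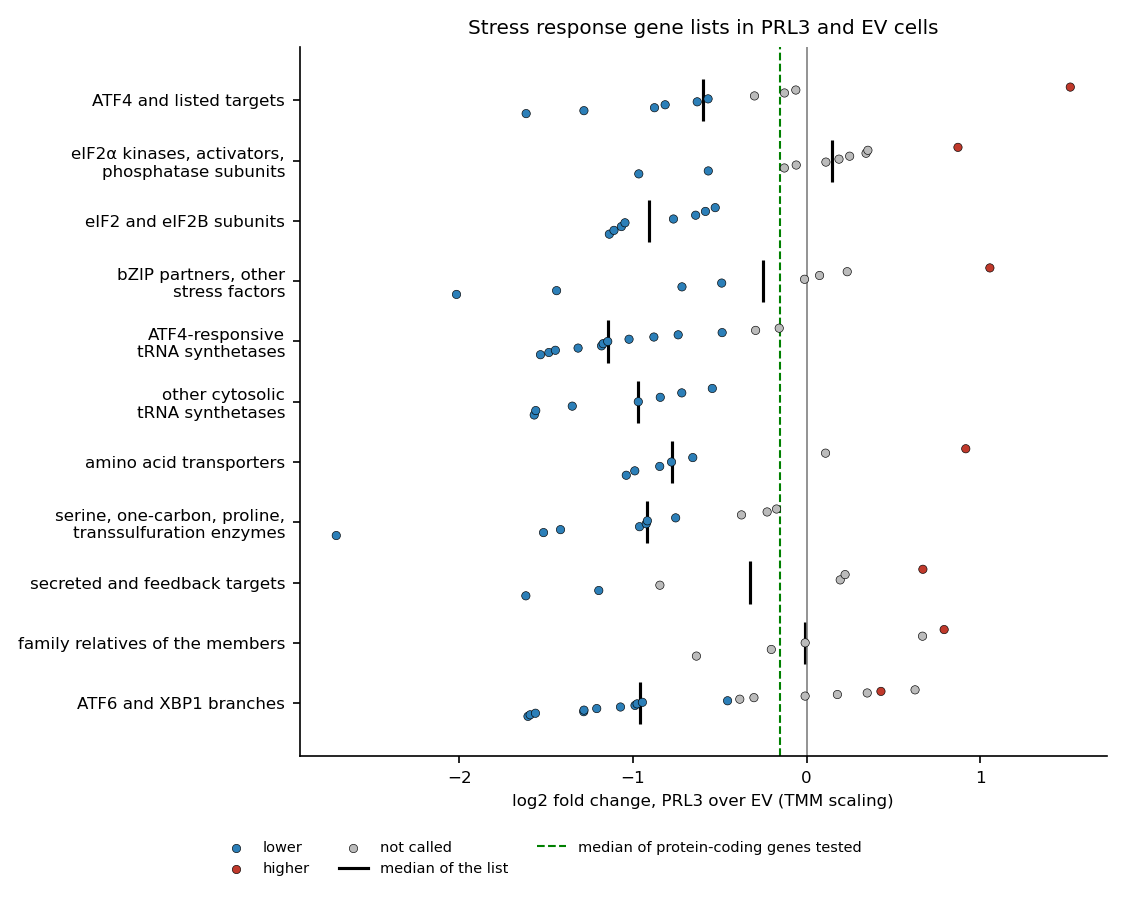
Log2 fold change, PRL3 over EV (x axis, TMM scaling), of each tested gene in the 10 members and in 10 lists (y axis), colored by call, with a black bar at each list's median and a dashed line at the median of protein-coding genes. All tested subunits of eIF2 and eIF2B and, with this scaling, all tested synthetases lie below 0, while the median of the kinase list is 0.15.

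The protein-coding genes whose levels followed ATF4 most closely over the 6 libraries were NXF1 (Pearson's r = 0.9997), IGFBP4 (0.9996), ITM2C (0.9995), SLC25A39 (0.9992) and TMEM109 (0.9991). The points fall into an EV and a PRL3 cluster, and the values share library, depth and scaling, so these coefficients are a description. All 5 were lower in PRL3, with log2 fold changes from -1.81 (ITM2C) to -0.46 (NXF1).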

How the data were processed

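Nascent RNA (4sU-seq) was measured in 3 EV and 3 PRL3 libraries, with 36532207 to 57952035 reads counted on genes. The deposited values are raw counts per gene: the authors checked reads with FastQC 0.11.3, aligned them to GRCh38 with STAR 2.5.1b and counted exonic reads on the reverse strand with HTSeq 0.6.1 against Ensembl 91. Summary lines of the counter (no feature, ambiguous) name no gene and stayed out of library sizes and tests; no feature was 28.7% to 69.1% and ambiguous 1.67% to 5.01% of uniquely aligned reads.

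Symbols and exon models came from GENCODE 44, which named 57532 of 58243 identifiers. Gene coordinates are from that annotation on GRCh38 and promoter windows from RefSeq on GRCh38.p14. Genes were filtered with filterByExpr, scaled by TMM and tested with edgeR 4.0.16 (R 4.3.3, glmQLFit and glmQLFTest, all 6 libraries, no covariates), with Benjamini-Hochberg adjustment over 23884 genes. Correlations used log2 CPM with a prior count of 2. The fit was tested on simulated data. DESeq2 1.42.0, limma 3.58.1 (voom), other scalings and filters, and fits without each library were alternatives. Two-sided exact permutation tests used normalized counts or log2 ratios.

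The genes named are all members, up to 3 genes each way with the largest called change in each list, the eIF2α kinases, PPP1R15A, CEBPB, CEBPG, ATF3 and ATF5 in any case, the 5 coding genes most correlated with ATF4, PTP4A3, and genes that overlap or are pseudogenes of members. LARS1, TARS1, PSPH, CARS1, NFE2L1, DNAJB11, FGF21 and DDIT4L fall outside this rule and were named after their values were seen. Members and lists were chosen with earlier results of these data known. The labels give no batch.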

Additional observations from a re-analysis of the deposited data

Results flagged for a closer look

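Uniquely aligned reads that the counter assigned to no gene were on average 66.3% in the PRL3 libraries against 33.3% in the EV libraries, and drew attention as signal in data that no comparison of genes used. The lowest PRL3 library (62.8%) was above the highest EV library (41.1%). With these reads in the library size, DDIT3 (-0.60), SESN2 (-0.54) and SLC7A11 (-0.78) were lower as well. Groups of 3 libraries are too small for a check of single outlying libraries.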

How the results depend on the processing

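Over 16 alternatives ASNS kept its rise and CHAC1 and PSAT1 their fall, each with its call. All 16 used the same exonic counts, so they do not bear on the exon-sharing limit of the ASNS counts given above. ATF4, TRIB3 and PHGDH stayed below 0 in all 16 and were called in 15, and DDIT4 stayed below 0 and was called in 8. With library size alone, 2 members were higher and 2 lower, the members' median log2 fold change was -0.12, that of all genes 0.60 and 21 listed pathway genes were higher, and DDIT3 (0.36), SESN2 (0.43) and SLC7A11 (0.20) turned positive. With upper-quartile scaling the median was -0.43, 12 listed genes were higher, and DDIT3 (0.049) and SESN2 (0.11) turned positive. In a fit of coding genes only these were -0.42, 12, 0.051 and 0.12. With all uniquely aligned reads as library size the median was -1.07 and 1 listed gene was higher. Under all 4 of these the members' median lay below that of the genes tested, by 0.45 to 0.72. Where only the scaling differs this gap is nearly fixed in advance, since all genes shift together. With coding genes only it was 0.45. The cause of these changes was not tested beyond the common shift of all genes. Leaving out each library in turn gave 5 to 11 listed genes higher (11 without EV 1) and a log2 fold change of SESN2 from -0.17 to 0.044. Per longest transcript 4 of 10 genes kept their place in the order of PRL3 levels. Genes over all tested called lower and higher were 5426 and 4783 with TMM, 3078 and 9514 with library size alone, and 8473 and 1952 with all uniquely aligned reads. No paired analysis was possible because EV replicates 1, 2 and 3 and PRL3 replicates 9, 10 and 11 share no number. With 3 libraries a group no exact test could go below 0.1.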
